A study of Mus musculus with 6 samples.

Results

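Cytosolic ribosomal protein genes encode the structural proteins of the ribosome that translates nuclear messenger RNA. They were taken from the deposited expression table by symbol: Rpl (large subunit) or Rps (small subunit), with an optional p for the stalk proteins, followed by a number, so that the kinases of ribosomal protein S6 and annotated pseudogenes with a -ps symbol stayed out. This gave 77 of the 12072 genes in the table, 48 with large subunit symbols and 29 with small subunit symbols. Of 80 standard ribosomal proteins, 75 were in the table and 71 were among the 77. Rpsa, Fau and Gnb2l1 (now Rack1) were among those in the table under symbols that the rule does not take. Rpl26, Rpl37a, Rps13, Rps28 and Rps29 were not analysed here. The remaining members were Rpl3l, Rpl22l1, Rpl36al, Rpl7l1, Rps27l and Rps4y2, which are paralogs of standard genes. Rps4y2 is Rps4l in GENCODE M21, where its biotype is a transcribed processed pseudogene.

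Both groups were left ventricles of 30-week-old mice on a normal chow diet, 6 hearts each. The control mice were fl/fl, that is with a floxed Mpc2 gene, and the other group was CS-Mpc2-/-, in which Mpc2, a subunit of the mitochondrial pyruvate carrier, was deleted. The promoter that drove the deletion is not given in the sources used here. RNA of 2 hearts was pooled in each library, which left 3 libraries per group from separate animals. Ribosomal RNA was depleted and total RNA was sequenced on an Ion Torrent Proton. The study asks what loss of mitochondrial pyruvate transport does to the heart, and the comparison here asks how the ribosomal protein genes differed between the genotypes.

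Both subunits of the ribosome are assembled in the nucleolus and cytoplasm from ribosomal RNA and one copy of nearly every ribosomal protein, with the stalk proteins in more than one copy. Their messenger RNAs are among the most abundant in most cells, and many begin with a run of pyrimidines that couples their translation to growth signals. Heart and skeletal muscle are unusual in making Rpl3l, a paralog of the core large subunit protein Rpl3. In muscle the paralog is known to take the place of Rpl3 as the tissue matures, and its level is known to drop when muscle grows.

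Levels are given as ppm, the deposited coverage of a gene per 1000000 of the library total, and differences as log2(ppm + 1) in CS-Mpc2-/- minus fl/fl. In the order of replicates 1 to 3, which holds for all lists of values below, Mpc2 had 45.2, 38.9 and 27.7 ppm in fl/fl, against 14.9, 18.2 and 46.3 ppm in CS-Mpc2-/-. The library labelled CS-Mpc2-/- replicate 3 was therefore above every fl/fl library and went against its label. Fl/fl replicate 3 stood apart from fl/fl replicates 1 and 2, with 6 cardiomyocyte markers summing to 50096 ppm in it against 90693 and 89496 ppm. The smallest value of any gene in a library was taken as its smallest step. In units of 1000000 times that step, coverage totals were 92.9 to 389, with the lowest in fl/fl replicate 1 and the highest in fl/fl replicate 3. Results are therefore given with all 6 libraries, without fl/fl replicate 3, and without replicate 3 of both groups. Fl/fl replicate 3 was left out because it stood apart in these same data, and 47 of the 77 members were nearer to the CS-Mpc2-/- mean in it. Leaving it out therefore widens many differences, and calls made without it are not independent evidence. Genes said below to have risen or fallen in such fits are to be read with this limit.

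The muscle paralog Rpl3l and its general counterpart Rpl3 differed between the groups in opposite directions. Rpl3 sits beside the peptidyl transferase centre of the large subunit. Rpl3l lies on the plus strand of chromosome 17 at 24727820 to 24736143 (mm10), with 10 exons and a transcript of 1375 nt. Rpl3, on the minus strand of chromosome 15, also has 10 exons, and its transcript has 1351 nt. Their coding sequences, of 1221 and 1209 bases, aligned over 1205 bases, of which 896 (74.4%) were identical, and the longest identical run was 22 bases. The first 90 coding bases (GENCODE M21) are shown to make visible how far the copies can be told apart. Capitals mark the 21 positions at which they differ.
Rpl3: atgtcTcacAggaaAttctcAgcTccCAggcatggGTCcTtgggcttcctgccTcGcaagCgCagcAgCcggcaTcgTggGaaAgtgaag
Rpl3l: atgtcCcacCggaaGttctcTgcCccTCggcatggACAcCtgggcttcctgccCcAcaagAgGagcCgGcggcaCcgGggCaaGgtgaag

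No 50-base stretch of the Rpl3l transcript occurred in a transcript of another gene in GENCODE M21. For Rpl3, 85.6% of such stretches also occurred elsewhere, in 26 annotated pseudogenes. Its level therefore depends on how the authors assigned reads that match several places, which is not given in the sources used here.

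Rpl3l had 109.5, 130.3 and 54.6 ppm in fl/fl, against 21.1, 15.4 and 50.8 ppm in CS-Mpc2-/-. All CS-Mpc2-/- libraries lay below all fl/fl libraries, but both replicates numbered 3 lay close together between the others. Mean levels came to 98.2 ± 39.1 and 29.1 ± 19.0 ppm (SD, n = 3 each), 3.37 times higher in fl/fl. The log2 difference was -1.81 ± 0.40 (SE, limma, adjusted p = 0.220). Without fl/fl replicate 3, Rpl3l fell by 2.18 (limma, adjusted p = 0.00171).

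Rpl3 had 26.0, 25.9 and 44.6 ppm in fl/fl, against 73.9, 68.0 and 57.4 ppm in CS-Mpc2-/-. Again the groups did not overlap, and again both replicates numbered 3 were the libraries nearest to the other group. Mean levels came to 32.2 ± 10.7 and 66.4 ± 8.37 ppm (SD, n = 3 each), 2.07 times higher in CS-Mpc2-/-, and the log2 difference was 1.06 ± 0.23 (SE, limma, adjusted p = 0.220). Without fl/fl replicate 3 the difference was 1.31 (limma, adjusted p = 0.00111). Over all alternatives the difference was 0.93 to 1.41 for Rpl3 (limma, adjusted p 0.000389 to 0.769) and -2.66 to -1.46 for Rpl3l (limma, adjusted p 3.42e-06 to 0.769). The authors' deposited table gives ratios of the group means of 2.06 for Rpl3 (p = 0.0120) and 0.296 for Rpl3l (p = 0.0513), both unadjusted.

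Per kb of transcript, Rpl3l made up 80.5%, 83.2% and 54.6% of the pair's coverage in fl/fl and 21.9%, 18.2% and 46.5% in CS-Mpc2-/-. By this coverage, Rpl3l was thus the larger of the pair in every fl/fl library and the smaller in every CS-Mpc2-/- library. Since 85.6% of the Rpl3 stretches also occur elsewhere, the size of the share depends on how such reads were assigned. The mean share was 72.8% ± 15.8 in fl/fl and 28.9% ± 15.4 in CS-Mpc2-/- (SD, n = 3 each). The log2 ratio of Rpl3l to Rpl3 differed by -2.87 ± 0.86 (SE), with p = 0.1 in a two-sided exact permutation test, the smallest p that the 20 arrangements of 3 against 3 allow. Between replicates 1 and 2 alone, Rpl3l was 6.58 times higher in fl/fl and Rpl3 was 2.73 times higher in CS-Mpc2-/-.

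**Figure D1:**
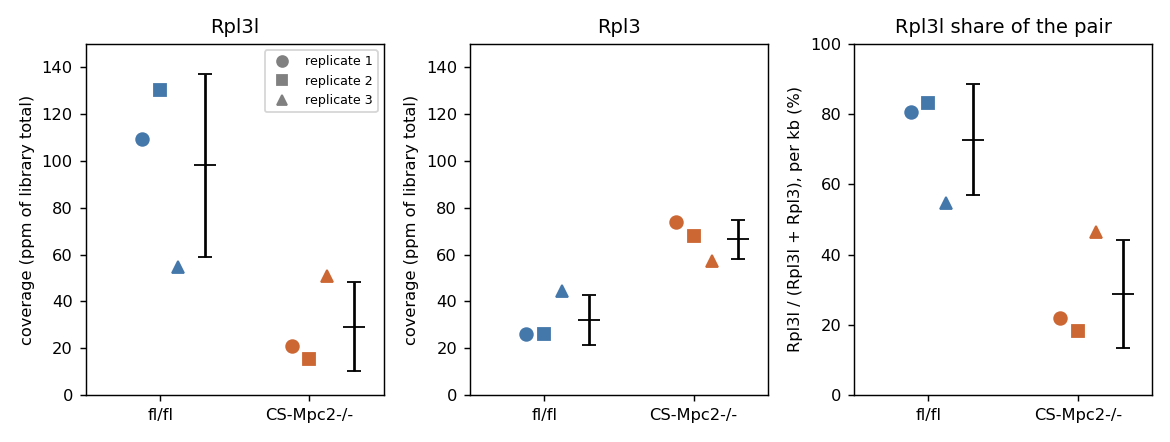
Coverage of Rpl3l and Rpl3 (ppm of the library total) and the Rpl3l share of the pair per kb (%), by group. Points are libraries, with 1 marker shape per replicate number, and bars are the mean ± SD of 3 libraries. Rpl3l is at 54.6 to 130.3 ppm in fl/fl and 15.4 to 50.8 ppm in CS-Mpc2-/-, Rpl3 shows the opposite order, and replicate 3 of each group lies nearest to the other group.

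The family as a whole took a larger part of the CS-Mpc2-/- libraries. The 77 genes summed to 2797, 2500 and 3065 ppm in fl/fl and to 3963, 3464 and 3427 ppm in CS-Mpc2-/-. No library of either group reached into the range of the other. Mean levels came to 2787 ± 282 and 3618 ± 299 ppm (SD, n = 3 each), a ratio of 1.30, and this was 1.37 against the mean of fl/fl replicates 1 and 2. As a share of the library the family was 0.250% to 0.306% in fl/fl and 0.343% to 0.396% in CS-Mpc2-/-. In whole tissue, a change in how many cells of a type there are and a change in RNA per cell cannot be told apart.

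**Figure D2:**
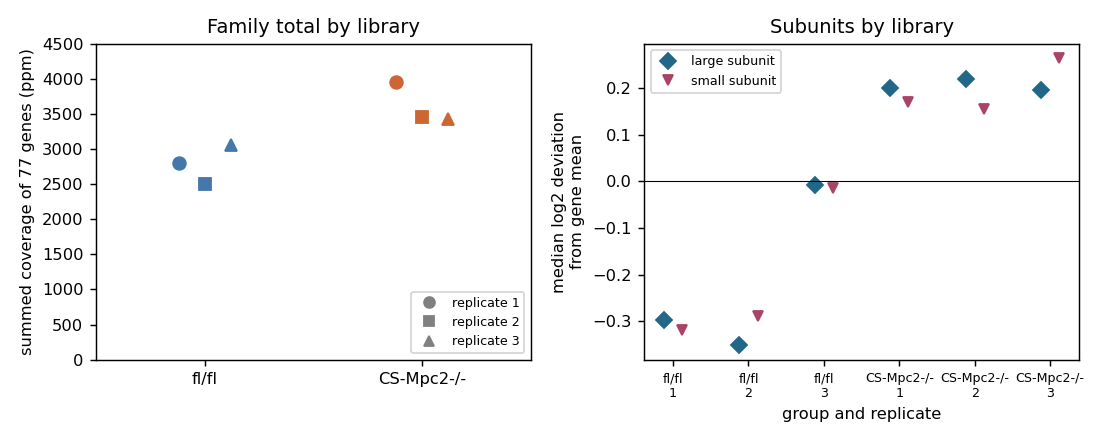
Left, summed coverage of the 77 genes (ppm) in each library, with 1 marker shape per replicate number. Right, the median log2 deviation of large and small subunit genes from each gene's mean over the 6 libraries. The sums are 2500 to 3065 ppm in fl/fl and 3427 to 3963 ppm in CS-Mpc2-/-, and both subunits follow the same course over the libraries.

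Across genes, the median log2 difference was 0.43 (quartiles 0.20 and 0.62), and 70 of 77 members (90.9%) were above 0. Over all 12072 genes the median was 0.04 and 54.4% were above 0. With all 6 libraries 0 members passed limma's test adjusted over all genes, as for the whole table, where the smallest adjusted p was 0.220. At an unadjusted p under 0.05 there were 23 members higher, against a background of 8.08% of all genes, and 1 lower (Rpl3l), against 5.43%. The groups did not overlap for 23 members with higher values in CS-Mpc2-/- (background 8.01%) and for 1 with lower values (background 6.48%). With upper quartile or median-of-ratios scaling the median of all genes was 0.00 and that of the members 0.40.

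Within single libraries, 23, 12 and 36 of the 77 members were above their own mean over the libraries in fl/fl replicates 1 to 3. In CS-Mpc2-/- replicates 1 to 3 these counts were 62, 59 and 54. The median log2 deviation from each gene's mean was -0.30, -0.31 and -0.01 in fl/fl and 0.19, 0.19 and 0.22 in CS-Mpc2-/-. Fl/fl replicate 3 was thus midway between the other fl/fl libraries and CS-Mpc2-/-. The library labelled CS-Mpc2-/- replicate 3, in contrast to its Mpc2 and Rpl3l levels, had a median deviation like that of the other CS-Mpc2-/- libraries.

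Without fl/fl replicate 3, 16 members rose in limma's test adjusted over all genes (background 6.51%), 10 of the large and 6 of the small subunit, and 1 fell (background 4.4%). The median difference was then 0.55, and at an unadjusted p under 0.05 there were 34 members higher (background 15.2%) and 2 lower (background 11.1%). Without replicate 3 of both groups, 15 rose (background 7.24%) and 1 fell (background 5.3%), with a median of 0.46, and 29 were higher (background 14.8%) and 2 lower (background 11.5%) unadjusted. Of the 17 genes called in the first of these fits, 13 were among the 16 called in the second. With fl/fl replicate 1 or 2 left out instead, 0 members were called higher or lower.

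**Figure D3:**
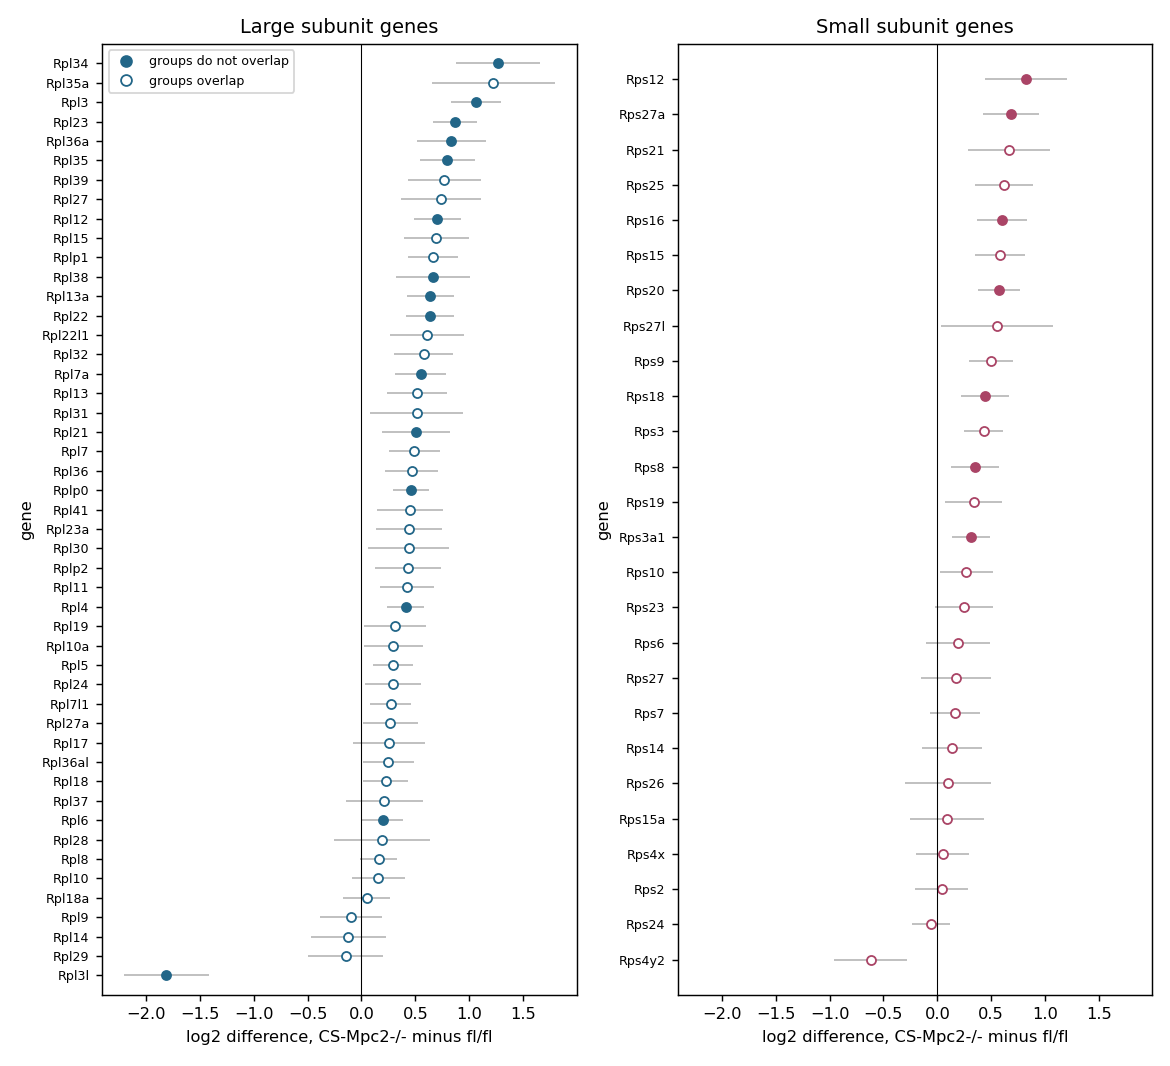
Log2 difference (CS-Mpc2-/- minus fl/fl, all 6 libraries) of the members shown, by subunit, with the SE as a bar. Filled points mark genes whose groups do not overlap. Most points lie between 0 and 1, Rpl34 is the highest of the large subunit at 1.26 and Rps12 of the small subunit at 0.82, and Rpl3l stands alone at -1.81.

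Among large subunit genes other than Rpl3, the clearest differences were in proteins of several regions of the subunit. Rpl22, an RNA-binding protein of the subunit surface, had 77.7, 66.8 and 125.9 ppm in fl/fl, against 138.0, 134.6 and 133.8 ppm in CS-Mpc2-/-. Rpl23, which lies at the surface that meets the small subunit, had 53.6, 33.1 and 48.8 ppm in fl/fl, against 89.7, 76.0 and 79.6 ppm in CS-Mpc2-/-. For both genes every CS-Mpc2-/- library was above every fl/fl library, and for Rpl22 fl/fl replicate 3 lay just below them. The log2 differences were 0.64 ± 0.22 for Rpl22 and 0.87 ± 0.20 for Rpl23 (SE). Without fl/fl replicate 3 both rose (limma, adjusted p = 0.00471 and 0.0150). Rpl12 and Rpl13a, at 0.70 ± 0.22 and 0.64 ± 0.22 (SE), also had groups without overlap but did not pass in that fit (limma, adjusted p = 0.0605 and 0.0686). Without replicate 3 of both groups both rose (limma, adjusted p = 0.0300 and 0.0423).

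Rpl39 and Rpl4 line the tunnel through which the new protein leaves, and Rpl35 lies at its exit. Rpl39 had 12.8, 8.90 and 27.8 ppm in fl/fl, against 25.2, 21.4 and 32.2 ppm in CS-Mpc2-/-, and the groups overlapped through fl/fl replicate 3. Rpl4 had 131.7, 141.2 and 183.1 ppm in fl/fl, against 200.6, 202.3 and 197.5 ppm in CS-Mpc2-/-, without overlap. Rpl35, also without overlap, had 11.2, 10.1 and 16.7 ppm in fl/fl, against 20.7, 27.6 and 19.2 ppm in CS-Mpc2-/-. All of them rose without fl/fl replicate 3 (limma, adjusted p = 0.0125, 0.0415 and 0.0266). Most of the Rpl35 transcript (95.1% of 50-base stretches) recurs in other genes, and its exons overlap those of Wdr38 and Arpc5l.

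The stalk proteins Rplp0, Rplp1 and Rplp2, which recruit the elongation factors, summed to 332, 274 and 362 ppm in fl/fl and to 534, 439 and 424 ppm in CS-Mpc2-/-. The groups did not overlap, and the ratio of the means was 1.44. Rplp0 had 187.0, 184.6 and 246.7 ppm in fl/fl, against 297.5, 269.2 and 278.8 ppm in CS-Mpc2-/-, a log2 difference of 0.46 ± 0.17 (SE). It rose without fl/fl replicate 3 (limma, adjusted p = 0.0280). Rplp1 had a log2 difference of 0.66 ± 0.23 and Rplp2 of 0.43 ± 0.31 (SE), and neither passed in that fit (limma, adjusted p = 0.106 and 0.187). Without replicate 3 of both groups Rplp1 rose (limma, adjusted p = 0.0373). Rpl5 and Rpl11, which carry the 5S RNA and are known to bind Mdm2 when free of the ribosome, had log2 differences of 0.30 ± 0.18 and 0.42 ± 0.25 (SE), with overlapping groups. Rpl5 shares 93.8% of its 50-base stretches with other genes, which makes its level uncertain.

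Rpl34, a large subunit protein, had the highest log2 difference of the family with all 6 libraries and 1 ppm added before the logarithm. It had 1.17, 1.52 and 3.54 ppm in fl/fl, against 4.70, 6.05 and 7.56 ppm in CS-Mpc2-/-, without overlap. The difference was 1.26 ± 0.39 (SE) with all 6 libraries and 1.58 without fl/fl replicate 3 (limma, adjusted p = 0.0212). It did not pass without replicate 3 of both groups (limma, adjusted p = 0.0669). Rpl35a followed at 1.22 ± 0.57 (SE) and was first at 1.64 without fl/fl replicate 3, but with all 6 libraries its groups overlapped, and its 0.291 ppm in fl/fl replicate 1 was the lowest value of any member. The order at the top rested on the value added: with 0.1 ppm Rpl35a was at 1.78 and Rpl34 at 1.64, and with 5 ppm Rpl3 (0.97) and Rpl23 (0.81) were above Rpl34 (0.66). Rpl34 and Rpl35a are low on this scale, with means of 4.09 and 5.05 ppm over the 6 libraries, and 8 of the 77 members had a mean under 5 ppm. Their differences rest on little coverage, above all in fl/fl replicate 1, which had the lowest coverage total. There, the value of Rpl35a was made up of 27 of the library's smallest steps. All 77 passed the filter at a mean of 1 ppm.

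In the small subunit, Rps15, whose tail reaches the decoding site, had 75.01, 66.2 and 126.9 ppm in fl/fl, against 140.3, 133.5 and 114.1 ppm in CS-Mpc2-/-. Here fl/fl replicate 3 lay above the library labelled CS-Mpc2-/- replicate 3, so that the groups overlapped. Rps15 rose without fl/fl replicate 3 (limma, adjusted p = 0.00809).

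Rps3 and Rps9, both at the entry of the messenger RNA channel, and Rps20, which lies in the head of the small subunit, also rose in that fit (limma, adjusted p = 0.0415, 0.0316 and 0.0388). Rps3 had 169.3, 174.6 and 237.0 ppm in fl/fl, against 299.1, 245.2 and 234.2 ppm in CS-Mpc2-/-, with a small overlap between the replicates numbered 3. Rps20 had 27.6, 25.5 and 35.6 ppm in fl/fl, against 41.9, 43.7 and 46.6 ppm in CS-Mpc2-/-, without overlap, but did not pass without replicate 3 of both groups (limma, adjusted p = 0.0553). Rps12 had the highest small subunit difference with all 6 libraries, 0.82 ± 0.38 (SE, and 0.38 with 5 ppm added). It too rested on little coverage, at 1.17 to 2.26 ppm in fl/fl and 3.44 to 3.93 ppm in CS-Mpc2-/-, with a mean of 2.68 ppm. Rps12 did not pass without fl/fl replicate 3 (limma, adjusted p = 0.155). The large subunit genes that rose without fl/fl replicate 3 and are not described above were Rpl7 and Rpl15 (limma, adjusted p = 0.0400 and 0.0478), and neither passed without replicate 3 of both groups (limma, adjusted p = 0.0705 and 0.124).

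A few members were not higher in CS-Mpc2-/-. Besides Rpl3l, those with a log2 difference below 0 included Rpl9, Rpl14 and Rpl29 of the large subunit (-0.10, -0.12 and -0.15) and Rps24 and Rps4y2 of the small subunit (-0.06 and -0.62). Rps4y2 had 19.2, 9.98 and 7.57 ppm in fl/fl, against 5.53, 7.94 and 7.98 ppm in CS-Mpc2-/-, so that only fl/fl replicates 1 and 2 were above the rest. The groups of each of these genes but Rpl3l overlapped. Rps6, the protein phosphorylated by S6 kinases, was not one of them, as its log2 difference was above 0 (0.19 ± 0.30, SE). It had 17.2, 17.8 and 39.1 ppm in fl/fl, against 21.7, 27.6 and 30.6 ppm in CS-Mpc2-/-, so that its groups overlapped. The highest Rps6 value was that of fl/fl replicate 3. Leaving this library out gave a difference of 0.57, which did not pass (limma, adjusted p = 0.151).

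Both subunits had a higher mean sum in CS-Mpc2-/-. Large subunit genes summed to 1556 ± 177 ppm in fl/fl and 2050 ± 113 ppm in CS-Mpc2-/-, a ratio of 1.32. Small subunit genes summed to 1231 ± 107 and 1568 ± 202 ppm, a ratio of 1.27 (SD, n = 3 each). The quotient of the sums, large over small, was 1.24, 1.24 and 1.30 in fl/fl and 1.21, 1.29 and 1.45 in CS-Mpc2-/-, with means of 1.26 ± 0.0377 and 1.32 ± 0.121, and the groups overlapped. Of the large subunit 44 of 48 genes were above 0, with a median log2 difference of 0.45, and of the small subunit 26 of 29, with a median of 0.34. Taken per library, as the median deviation of each subunit's genes and then the mean of each group, the large subunit was shifted by 0.02 more than the small, and the SD of that quantity between libraries was 0.0446 in fl/fl and 0.0679 in CS-Mpc2-/-. This value depended on the processing. It was -0.04 without CS-Mpc2-/- replicate 1, -0.02 without CS-Mpc2-/- replicate 2 and 0.0929 with the length trend of each library removed. The SDs above are of values without that removal, so they give no spread for 0.0929. In that last fit 42 of 48 large subunit genes and 20 of 29 small subunit genes were above 0, with medians of 0.26 and 0.17.

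One gene, Rps14, weighed on these sums. Rps14, which takes part in maturing the small subunit RNA, had 444.6, 333.0 and 299.7 ppm in fl/fl, against 602.7, 394.5 and 246.8 ppm in CS-Mpc2-/-. Its highest value was in CS-Mpc2-/- replicate 1 and its lowest in the library labelled CS-Mpc2-/- replicate 3, so that the groups overlapped. Without it the family summed to 2428 ± 306 and 3203 ± 147 ppm (SD, n = 3 each), a ratio of 1.32.

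Per kb of transcript, mean coverage over the 6 libraries ran from 2.33 ppm per kb for Rps15a to 493 for Rps14, a span of 212-fold around a median of 19.3. These levels depend on which annotated transcript was taken. For Rps15a it was one of 5179 nt, and a shorter one would give a higher level per kb. Which transcripts the coverage came from was not tested. Other high levels per kb were those of Rplp1 (283), Rps15 (219), Rplp0 (180), Rpl19 (120), Rps3 (119) and Rpl4 (114). Many ribosomal protein genes have processed pseudogenes, and how reads that match several copies were assigned is not known here. The median member shared 49.4% of its 50-base stretches with other genes, and 38 members shared over 50%. Across the 77 genes, Spearman's rho of the level per kb was -0.30 with the number of pseudogenes that share a stretch and -0.02 with the shared percentage. The log2 difference between groups was not ordered by sharing (rho 0.08): its median was 0.41 over the 21 members that share under 30% and 0.44 over the 25 that share over 70%. Exons of 22 members overlap those of other genes, and over the other 55 the median was 0.43. These correlations are descriptions over genes measured in the same libraries.

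Transcript length went along with the difference. Over the 77 members Spearman's rho between the log2 difference and length was -0.23, and over 11917 other genes with a length it was -0.12. The 39 members of up to 886 nt had a median log2 difference of 0.45 and the 38 longer ones 0.32. The shortest transcripts, of Rps27, Rpl36 and Rps21 (345, 383 and 394 nt), had log2 differences of 0.17, 0.47 and 0.67, and the longest, of Rps15a, Rps20 and Rpl18 (5179, 3706 and 2989 nt), had 0.09, 0.57 and 0.23. Single genes at either end therefore did not follow annotated length closely. Where transcripts tied for the longest coding sequence the longer was taken, so the transcript present in the tissue may be shorter. Per library, the median deviation of long minus that of short members was 0.09, 0.00 and 0.04 in fl/fl and -0.03, -0.08 and -0.08 in CS-Mpc2-/-, with no overlap between groups. The means were 0.0442 ± 0.0437 and -0.0659 ± 0.0296 (SD, n = 3 each).

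Other genes of the same length had lower medians than the members in each of 7 length ranges. Between 300 and 500 nt the median log2 difference was 0.67 over 9 members and 0.27 over 66 other genes. Between 700 and 1000 nt it was 0.31 over 29 members and 0.20 over 399 others, and between 1400 and 2000 nt 0.43 over 5 members and 0.09 over 1530 others. Between 3000 and 6000 nt the 2 members had a median of 0.33, and the 4632 other genes were not shifted (0.00). With the length trend of each library removed, the median of the members was 0.24 and that of all genes 0.01, and 62 of 77 members were above 0. At an unadjusted p under 0.05, 12 members were then higher (background 6.8%) and 2 lower (background 6.39%). The part of length in the family's difference was not tested beyond this. Rpl3 and Rpl3l, of nearly equal length, kept their differences in that fit (0.95 and -1.92).

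**Figure D4:**
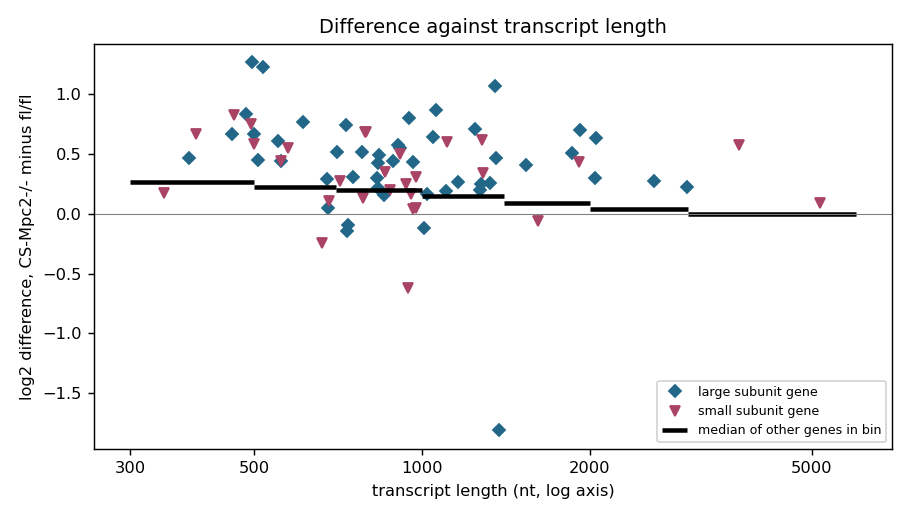
Log2 difference of the 77 genes (CS-Mpc2-/- minus fl/fl, all 6 libraries) against transcript length (nt, log axis), with bars at the median of all other genes in each length range. The bars fall from 0.27 at 300 to 500 nt to near 0 above 3000 nt, most members lie above the bar of their range, and Rpl3l lies far below it.

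For the paralogs other than Rpl3l, the share of the pair overlapped between the groups. Per kb, Rpl22l1 made up 18.0% ± 1.41 of the pair with Rpl22 in fl/fl and 19.1% ± 6.53 in CS-Mpc2-/-. Rpl36al made up 65.6% ± 8.92 of the pair with Rpl36a and then 53.6% ± 8.90, and Rps4y2 37.2% ± 14.4 of the pair with Rps4x and then 25.8% ± 3.43. Rps27l was at 41.9% ± 20.3 of the pair with Rps27 and then 48.2% ± 23.4, and Rpl7l1 at 15.9% ± 2.62 of the pair with Rpl7 and then 13.9% ± 1.06 (SD, n = 3 each). Rpl36a shares 85.5% of its stretches with other genes and Rps27 98.6%, which limits what their shares show.

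Promoters were compared because most members were higher in CS-Mpc2-/- while Rpl3l was lower. RefSeq start regions (GRCm38.p6, the assembly behind mm10) were at hand for 57 of the 77 members, Rpl3l among them, and 250 bases before each start were searched on both strands. The ETS core CCGGAAG was in 17 of 57 (29.8%) against 7.83% of all genes, and the GC box GGGCGG in 54.4% against 35.4%. An E-box CANNTG was in 47.4% against 69.3%, TATAAA in 7.02% against 14.3%, and the MCAT element CATTCC in 8.77% against 14.4%. The MEF2 box was in 0 of 57 against 3.70% of all genes, and the YY1 core AAGATGGCG in 3.51% against 0.71%. Of the 77 transcripts' genes, 20 had an annotated coding transcript that begins with C and 4 pyrimidines, against 5.12% of 21901 coding genes. The stretch before Rpl3l (chr17:24727576-24727825, plus strand) and that before Rpl34 (chr3:130730399-130730648, minus strand), chosen for its high difference in the fit of all 6 libraries, are shown 5′ to 3′ with matches to any of these motifs in capitals.
Rpl3l: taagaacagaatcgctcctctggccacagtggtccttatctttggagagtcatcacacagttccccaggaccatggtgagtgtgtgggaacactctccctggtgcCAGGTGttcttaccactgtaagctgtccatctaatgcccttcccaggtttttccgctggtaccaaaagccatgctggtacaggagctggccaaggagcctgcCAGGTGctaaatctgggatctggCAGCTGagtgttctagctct
Rpl34: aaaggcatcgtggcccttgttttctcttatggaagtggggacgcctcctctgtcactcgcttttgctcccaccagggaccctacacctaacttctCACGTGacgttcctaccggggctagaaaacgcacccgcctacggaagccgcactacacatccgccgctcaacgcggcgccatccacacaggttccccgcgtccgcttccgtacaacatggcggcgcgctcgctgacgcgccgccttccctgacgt

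Rpl3l had 3 E-box matches and Rpl34 had 1, and 0 matches to the other motifs were found in either stretch. Matches describe these letters only and say nothing of which factors bind.

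The 4 subunit genes under other symbols were all above 0, with a median log2 difference of 0.45. Gnb2l1, the scaffold protein of the small subunit head, had 204.6, 218.2 and 282.5 ppm in fl/fl, against 358.8, 322.4 and 323.0 ppm in CS-Mpc2-/-. Its groups did not overlap, and it rose without fl/fl replicate 3 (limma, adjusted p = 0.0179). Rps27a, a member made as a fusion with ubiquitin, had a difference of 0.68 ± 0.26 (SE), without overlap.

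Factors that build ribosomes had a smaller median difference than the ribosomal proteins. Of 64 listed factors 63 were in the table, 49 of them above 0, with a median log2 difference of 0.21. The factors were not matched to the members for transcript length, which went along with the difference, and its part in this contrast was not tested. With all 6 libraries 5 were higher and 1 lower at an unadjusted p under 0.05 (background 8.08% and 5.43%), and without fl/fl replicate 3, 5 rose and 0 fell in limma's test adjusted over all genes (background 6.51% and 4.4%). The shares called higher were thus near those of all genes. Eif6, which keeps free large subunits from joining small ones, had 8.604, 15.3 and 21.7 ppm in fl/fl, against 30.3, 32.2 and 24.2 ppm in CS-Mpc2-/-, without overlap. It rose without fl/fl replicate 3 (limma, adjusted p = 0.0118), as did Rrp12, a factor for export of both subunits, and Riok2, a kinase of late small subunit maturation (limma, adjusted p = 0.0164 and 0.0325). Without replicate 3 of both groups Riok2 did not pass (limma, adjusted p = 0.0543). Of 14 genes of the RNA polymerase I machinery 13 were in the table, with a median of 0.13 and 0 past an unadjusted p under 0.05 in either direction. Without fl/fl replicate 3, 0 of them were called, and without replicate 3 of both groups 1 fell, Polr1a (limma, adjusted p = 0.0376, background 5.3%). Among 20 listed genes of translation control, S6 kinases and growth signals, the median was -0.16. At an unadjusted p under 0.05, 1 was higher and 1 lower, which is no more than the background of 8.08% and 5.43% gives for a list of this size. These were Myc, a transcription factor of growth genes, at 0.67 ± 0.27, and Eif4ebp2, a repressor of cap-dependent translation, at -0.57 ± 0.26 (SE). Eif4ebp2 was the only 1 of the 20 called without fl/fl replicate 3 (limma, adjusted p = 0.0415, background 4.4%). It did not pass without replicate 3 of both groups (limma, adjusted p = 0.0517). Of 10 genes of the p53 response 9 were in the table, with a median of 0.12 and 1 higher, 0 lower unadjusted (background 8.08% and 5.43%), a count too small to set apart from the background. The 1 was Phlda3, a p53 target, which had 11.7, 11.6 and 35.7 ppm in fl/fl, against 66.5, 56.2 and 34.0 ppm in CS-Mpc2-/-, so that the replicates numbered 3 were alike. Phlda3 was the only 1 of the 9 called without fl/fl replicate 3 (limma, adjusted p = 0.000385, background 6.51%). Without replicate 3 of both groups Phlda3 and Cdkn1a rose (limma, adjusted p = 2.45e-05 and 0.00807), 2 of 9 against a background of 7.24%. These counts are small as well.

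Small RNAs that lie within member genes and 5 annotated ribosomal pseudogenes were also measured. Of 62 small RNA genes hosted by members, 32 were in the table, 26 of them above 0, with a median log2 difference of 0.39. At an unadjusted p under 0.05, 7 were higher (background 8.08%) and 0 lower (background 5.43%). The groups did not overlap for 2 of the 32, both higher in CS-Mpc2-/- (background 8.01%). One was Snord43, within Rpl3, with 53.8, 40.6 and 54.2 ppm in fl/fl, against 67.2, 80.0 and 122.5 ppm in CS-Mpc2-/-. Snord83b, also within Rpl3, overlapped, with 125.5, 291.3 and 679.4 ppm in fl/fl, against 294.9, 378.8 and 881.4 ppm in CS-Mpc2-/-. All 5 pseudogenes were above 0, with a median of 0.65. How much of their coverage came from reads of their parent genes is not known here and was not tested.

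The summed markers of fibroblasts and of macrophages did not overlap between the groups, while those of the other cell types overlapped. With all 6 libraries 0 markers passed limma's test adjusted over all genes. The 7 fibroblast markers summed to 932, 826 and 1738 ppm in fl/fl and to 5343, 2332 and 2049 ppm in CS-Mpc2-/-, and 5 of 7 were higher at an unadjusted p under 0.05 (background 8.08%). The 6 cardiomyocyte markers, led by Myh6, summed to 90693, 89496 and 50096 ppm in fl/fl and to 52986, 59367 and 51322 ppm in CS-Mpc2-/-, with 6 of 6 below 0. At an unadjusted p under 0.05, 3 of the 6 were lower (background 5.43%). Most of each sum was Myh6, with 65413, 66012 and 30974 ppm in fl/fl, against 37522, 40319 and 33936 ppm in CS-Mpc2-/-. Ryr2 alone had groups without overlap, at 6337, 6677 and 4642 ppm in fl/fl, against 3150, 3822 and 4431 ppm in CS-Mpc2-/-. Of 7 macrophage markers 5 were in the table, with sums of 202 to 261 ppm in fl/fl and 272 to 336 ppm in CS-Mpc2-/-. Of these, 4 were above 0 and 2 were higher at an unadjusted p under 0.05 (background 8.08%). Cd163 went the other way, with 61.4, 67.0 and 37.7 ppm in fl/fl, against 38.2, 46.3 and 46.4 ppm in CS-Mpc2-/-. The 5 endothelial markers summed to 1079 to 1319 ppm in fl/fl and 1245 to 1303 ppm in CS-Mpc2-/-, and the 5 smooth muscle and pericyte markers to 625 to 687 and 621 to 637 ppm. Of 4 lymphocyte markers only Ptprc was in the table, at 9.31 to 19.0 ppm, and of 3 red blood cell markers 2 were, at 257 to 539 ppm in sum. None of these markers in the table was at 0 in any library. Fl/fl replicate 3 was nearer to the CS-Mpc2-/- libraries than to the other fl/fl libraries in its cardiomyocyte sum, and 47 of the 77 members were nearer to the CS-Mpc2-/- mean in it. The part of cell composition in the differences of the ribosomal protein genes was not tested.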

How the data were processed

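Left ventricular RNA was measured in 6 libraries, each a pool of 2 hearts. As read from the values, the deposited signal is coverage in base-like steps, brought by the authors to almost equal totals. The genome build was mm10, per the submitters' processing notes. Aligner, counting, strand handling and gene annotation are not stated in the labels or the file. Reads could not be recovered from this signal, so no counting intervals are given, and coverage of overlapping genes cannot be told apart. The authors' table also gives the ratio (fold) of the group means and an unadjusted p-value per gene, and the higher group mean of a listed gene is never under 700.158 in the deposited unit.

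The design foresaw CPM-like values, and the signal was treated in the same way. Values were divided by the library total (ppm), a mean of 1 ppm or more was required, and log2(ppm + 1) was compared with limma 3.58.1 in R 4.3.3 (intensity trend, two-sided, Benjamini-Hochberg adjustment over all 12072 genes, threshold 0.05), with the group as the only term and after a check on simulated data. Fold changes of low genes are understated on this scale. The ratio of Rpl3l to Rpl3 was compared by an exact permutation test. Transcript lengths are of the GENCODE M21 transcript with the longest coding sequence, with ties going to the longer transcript, and covered 99.4% of genes. Promoters are from RefSeq. Python 3.11.15, SciPy 1.17.1 and Biopython 1.88 were used. The members and the gene lists were chosen with earlier results of these data known. Genes were named by a rule: Rpl3, Rpl3l and other paralogs, the 4 highest levels per kb per subunit, the 3 highest and lowest differences per subunit, the 10 smallest p-values, the 3 longest and shortest transcripts, and the 3 smallest p-values of each other list. Rplp2, Rpl5, Rpl11, Rpl39, Rpl15, Rpl9, Rps6, Rps9, Rps27a, Myh6, Cd163, Snord43 and Snord83b were named after their values were seen. Some genes are counted in the totals but are not reported by name.

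Replicate numbers were in the labels of both groups. The deviations of same-numbered libraries from their group means correlated at 0.07, -0.04 and -0.07, so the numbers were not taken to pair the libraries.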

Additional observations from a re-analysis of the deposited data

How the results depend on the processing

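With all 6 libraries 0 ribosomal protein genes passed limma's adjusted test under any scaling, pseudocount, filter or eBayes setting tried, nor with the replicate block, which gave 26 higher at an unadjusted p under 0.05 against 23. With 1 library left out, 0 to 16 were called higher and 0 to 1 lower. The calls appeared only without fl/fl replicate 3 (16 and 1) and without replicate 3 of both groups (15 and 1). At an unadjusted p under 0.05, 10 to 34 were higher and 1 to 2 lower with 1 library left out (10 and 13 when fl/fl replicate 2 or 1 was left out, 15 for CS-Mpc2-/- replicate 1), and 2 were lower without replicate 3 of both groups. With each library's transcript length trend removed, 12 were higher and 2 lower, the median difference was 0.24, large minus small was 0.0929 and long minus short 0.0252. With a pseudocount of 5 ppm the median was 0.30 and long minus short -0.0238, and without replicate 3 of both groups the latter was -0.15. Leaving out 1 library gave medians of 0.36 to 0.55, large minus small of -0.0396 to 0.0530 and long minus short of -0.17 to -0.0783. The log2 ratio of Rpl3l to Rpl3 then differed between the groups by -3.50 to -2.50. Leaving out a library leaves an exact test that cannot go below 0.2.

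Of the ribosomal protein genes named by the rule, 8 changed sign under some setting, and none of them had passed a test. Their differences with all 6 libraries were small, except that of Rps27l at 0.55 ± 0.52 (SE). With the length trend removed Rps14 was at -0.0646, Rps27 at -0.0941 and Rps4x at -0.12. Without replicate 3 of both groups Rpl14 was at 0.0310, Rpl29 at 0.0945 and Rps4x at -0.0942. With 1 library left out, Rpl14 ranged from -0.30 to 0.10, Rpl29 from -0.42 to 0.0178, Rps14 from -0.18 to 0.46, Rps15a from -0.17 to 0.39, Rps24 from -0.16 to 0.0381, Rps27 from -0.0216 to 0.38, Rps27l from -0.0189 to 0.94 and Rps4x from -0.17 to 0.24. The cause of these shifts was not tested. Depth limits the lowest genes most, since fl/fl replicate 1 had the fewest steps, and 27 of them made up the lowest value of any member.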
